A study of Homo sapiens with 12 samples.

Results

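ATAC-seq, in which a transposase cuts accessible DNA and leaves sequencing adapters behind, was applied to HCT116 cells, an established human colorectal carcinoma line. The regions described are those most deeply covered everywhere: regions of chromosomes 1 to 22 that were chosen by a raw count of at least 10 in each of the 12 libraries, with the loci of the 2 introduced genes left out. They number 1542 of 30170 regions in the series (29460 of them autosomal) and are called member regions. The control line held the vector alone (EV), and the other lines held EHF, CDX1 or both (EHF+CDX1), with 3 libraries for each line. EHF, an ETS-family transcription factor, was delivered as a plasmid with selection in G418 (geneticin), whereas CDX1, a caudal-type homeobox factor, was delivered by a retrovirus and cells were collected for GFP. The EHF+CDX1 cells were the CDX1 cells after transfection with EHF and selection of resistant clones, so that the 2 single lines and the combined line also differ in how they were selected. Nothing in the labels ties libraries to separate cultures, so p-values measure the spread between these libraries, which may be technical.

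Open chromatin shared by all cells of a line lies mainly at the starts of widely used genes. There, general factors bind short sequence words next to the transcription start and keep nucleosomes off. The CCAAT word is bound by the trimeric factor NF-Y, the GC box by SP-family factors, TGACGTCA by CREB and ATF proteins and TGANTCA by AP-1 (FOS and JUN proteins). Deep coverage has a further origin in any short-read assay: a region whose sequence occurs elsewhere, in the mitochondrial genome or in satellite arrays, can collect reads from those other copies.

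The members were therefore divided by sequence. Of the 1542, 141 matched mitochondrial DNA (at least 40 bases at 80% identity or more), and 404 others lay in pericentromeric sequence, within 5 Mb of a centromeric array or on the short arm of an acrocentric chromosome. Of the remaining 997, 830 lay within 1 kb of an annotated transcription start (gene-start members) and 167 lay farther away. The label of these regions as strongly open therefore holds for the counts, and the 545 that matched mitochondrial DNA or lay in pericentromeric sequence are described separately. The pericentromeric class was set by position, and 287 of its 404 members consisted mostly of repeated words. It also holds 48 regions within 1 kb of an annotated transcription start, which are not counted among the gene-start members. Since the lowest of 12 counts chose the members, their counts are given as a description. At the edge of the rule, 219 regions had a lowest count of 10 and 276 regions were left out with a lowest count of 9. The median of their mean counts was 23.7 and 23.3, and 81.3% and 83.7% lay within 1 kb of a start.

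The sequences that follow show the kinds of region the rule collects, read from hg38 on the plus strand. Positions are those of the deposited regions, except in the first 3, where they are of the part printed. Starts were taken to count from 0, so that each sequence begins 1 base after the start given. In the first 3, capitals mark the CCAAT word in either orientation and the word of CREB and ATF proteins. Those 3 are starts of unique sequence, each printed over a part outside annotated exons that was cut close to the outermost marked words. They are the shared start of G3BP1, a stress granule protein, and ATOX1, a copper chaperone (chr5:151771641-151771883), the start of ARRDC4, an arrestin-domain protein induced by glucose (chr15:97960420-97960660), and the start of CYCS, which encodes cytochrome c (chr7:25125362-25125565).
G3BP1 and ATOX1: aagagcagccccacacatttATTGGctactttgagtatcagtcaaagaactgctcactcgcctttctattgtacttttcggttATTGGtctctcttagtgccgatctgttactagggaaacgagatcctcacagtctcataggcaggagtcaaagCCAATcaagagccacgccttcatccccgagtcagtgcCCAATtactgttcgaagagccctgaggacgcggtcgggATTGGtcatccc
ARRDC4: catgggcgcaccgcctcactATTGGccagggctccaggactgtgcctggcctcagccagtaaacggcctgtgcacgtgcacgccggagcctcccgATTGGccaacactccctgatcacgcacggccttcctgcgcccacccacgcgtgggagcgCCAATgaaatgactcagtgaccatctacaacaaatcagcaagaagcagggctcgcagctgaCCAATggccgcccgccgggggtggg
CYCS: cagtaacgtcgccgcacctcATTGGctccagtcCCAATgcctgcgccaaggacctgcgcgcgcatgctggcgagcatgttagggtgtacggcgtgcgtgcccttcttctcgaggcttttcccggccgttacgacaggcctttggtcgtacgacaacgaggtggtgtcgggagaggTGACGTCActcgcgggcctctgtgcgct

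The next 2 lie away from any start in unique sequence and were lower in EHF+CDX1 cells. They are an intergenic region of chromosome 4 (chr4:180933815-180934012) and a region in an intron of SORCS3, which encodes a sorting receptor of neurons (chr10:104937619-104937886). Capitals mark TGANTCA.
Chromosome 4: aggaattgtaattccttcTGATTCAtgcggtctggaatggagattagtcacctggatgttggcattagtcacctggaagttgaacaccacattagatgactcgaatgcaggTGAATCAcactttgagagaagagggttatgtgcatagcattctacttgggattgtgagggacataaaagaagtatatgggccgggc
SORCS3: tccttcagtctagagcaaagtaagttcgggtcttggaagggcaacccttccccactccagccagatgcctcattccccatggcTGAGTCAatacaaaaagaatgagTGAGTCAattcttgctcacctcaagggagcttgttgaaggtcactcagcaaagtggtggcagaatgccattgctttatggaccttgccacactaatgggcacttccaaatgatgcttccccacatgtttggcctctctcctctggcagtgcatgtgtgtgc

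The remaining 6 are regions with high counts that hold a stretch shared with mitochondrial DNA or with another region, a run of C or a repeated word, although their 30-base words were mostly unique at MTCYBP16, ACSL3 and chromosome 3. In the first 2, capitals mark the longest run identical to mitochondrial DNA. The chromosome 13 region (chr13:109424165-109424326, over an exon of ENSG00000289901) is identical over all of its 161 bases, and the MTCYBP16 pseudogene (chr4:64608074-64608226) over 38, too diverged elsewhere to pass the match. In the third, an intron of ACSL3, which encodes an acyl-CoA synthetase (chr2:222866689-222866843), capitals mark a run of 24 C. In the next, the pericentromeric region with the most counts (chr3:93470419-93470664), they mark its most frequent 10-base word, present 5 times. In the last 2, an intron of DUX4 near the end of chromosome 4 (chr4:190179488-190179737) and a region beside the pseudogene ROCK1P1 near an end of chromosome 18 (chr18:108357-108543), they mark 65 bases that both hold on opposite strands.
Chromosome 13: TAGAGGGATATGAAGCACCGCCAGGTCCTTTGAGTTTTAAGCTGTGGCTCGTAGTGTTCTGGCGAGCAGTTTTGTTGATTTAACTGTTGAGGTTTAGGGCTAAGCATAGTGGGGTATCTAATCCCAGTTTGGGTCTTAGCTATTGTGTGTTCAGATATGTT
MTCYBP16: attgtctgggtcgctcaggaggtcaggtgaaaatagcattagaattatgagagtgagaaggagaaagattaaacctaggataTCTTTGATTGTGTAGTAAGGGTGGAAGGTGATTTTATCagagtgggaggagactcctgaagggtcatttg
ACSL3: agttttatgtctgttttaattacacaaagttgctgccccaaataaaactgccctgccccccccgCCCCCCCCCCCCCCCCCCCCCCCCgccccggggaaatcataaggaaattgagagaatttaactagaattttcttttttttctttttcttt
Chromosome 3: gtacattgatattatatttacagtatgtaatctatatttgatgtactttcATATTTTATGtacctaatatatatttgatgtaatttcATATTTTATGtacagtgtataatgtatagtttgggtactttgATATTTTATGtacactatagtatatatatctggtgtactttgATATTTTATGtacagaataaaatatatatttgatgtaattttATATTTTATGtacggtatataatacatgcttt
DUX4: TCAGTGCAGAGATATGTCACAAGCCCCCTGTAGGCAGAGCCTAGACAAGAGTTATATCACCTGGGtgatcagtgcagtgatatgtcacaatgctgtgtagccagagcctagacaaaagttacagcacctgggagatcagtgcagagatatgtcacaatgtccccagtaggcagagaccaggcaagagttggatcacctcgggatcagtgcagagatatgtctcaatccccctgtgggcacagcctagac
ROCK1P1: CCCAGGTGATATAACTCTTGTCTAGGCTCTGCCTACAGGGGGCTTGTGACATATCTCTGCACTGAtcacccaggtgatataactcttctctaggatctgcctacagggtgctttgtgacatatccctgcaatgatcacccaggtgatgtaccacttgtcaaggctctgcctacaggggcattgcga

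Library totals over all regions ran from 567366 to 2443334 counts. The loci of the introduced genes held 0.00494% to 0.0329% of EV counts and 9.99% to 78.4% of those in the other lines, so shares below are of the total without those loci, which ran from 526825 to 1522904 counts. EHF+CDX1 replicate 2 stood apart, with the highest such total. Its median region held 22 counts, where the remaining libraries had medians of 2 to 11. Within every line, however, replicate 2 had the highest such total and the highest median, which was 6 counts in EV, 11 in EHF and 9 in CDX1 libraries. The labelled cell type was checked at marker gene starts: 11 of 12 colon epithelium markers had a region within 1 kb of a start (CDH1 had none), and 1 of 8 markers of blood, stromal, endothelial and nerve cells had one (COL1A2, with 1 to 21 counts per library). The remaining 7 defining markers of those cells had no region. Among the colon markers, VIL1 held 0 to 4 counts and GPA33 0 to 2 in each EV, EHF and CDX1 library, with 28 and 20 in EHF+CDX1 replicate 2. Regions were merged over all libraries, so having a region does not show that a marker start was open in each line. No start of a marker of either kind held a member region.

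The library with the smallest TMM-scaled size, EV replicate 3, set the membership most often. With EV replicate 3 ignored, the rule would have taken 1915 regions, with CDX1 replicate 3 ignored 1681, and with EV replicate 1 ignored 1607. With any other library ignored it would have taken 1542 to 1572. A count of 10 corresponded to 15 CPM (counts scaled to a common library size by the TMM method) in EV replicate 3 and to 2.26 in EHF+CDX1 replicate 2. Within a single group, 2003 regions reached 10 in all 3 EV libraries, 2793 in CDX1, 4181 in EHF and 5925 in EHF+CDX1 libraries.

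The member regions took 49.5% to 77.8% of the counts of a library, and most of that belonged to the smallest class in number, the mitochondrial matches. These took 36.6% to 67.3%, pericentromeric members 4.31% to 8.59%, gene-start members 2.71% to 4.74% and the 167 others 1.34% to 2.16%. The summed count of the gene-start members ran from 15379 in EV replicate 3 to 71975 in EHF+CDX1 replicate 2, a 4.68-fold range, whereas that of the mitochondrial matches ran only from 324685 in CDX1 replicate 3 to 659909 in EV replicate 2, a 2.03-fold range. Mitochondrial matches took 63.5% ± 4.04 (SD, n = 3) of the counts in EV, 56.3% ± 5.86 in EHF, 58.3% ± 4.97 in CDX1 libraries and 46.7% ± 8.89 in EHF+CDX1 libraries. EHF+CDX1 and EV libraries did not overlap, with an exact two-sided permutation p of 0.1, the smallest that 3 against 3 libraries allow, and an adjusted p of 0.357 over the 25 comparisons of shares made (5 shares, 5 pairs of groups). The share of gene-start members was 2.95% ± 0.214 in EV, 3.86% ± 0.770 in EHF, 3.73% ± 0.718 in CDX1 libraries and 4.32% ± 0.353 in EHF+CDX1 libraries. Each of the 3 groups lay above EV without overlap, again with an exact permutation p of 0.1 and an adjusted p of 0.357 each. Shares of one total are not independent, so a lower mitochondrial share raises the others. The members were also chosen by these same counts, with EV replicate 3 setting the rule most often. Nothing is therefore read from these share tests or from the lack of overlap.

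**Figure D1:**
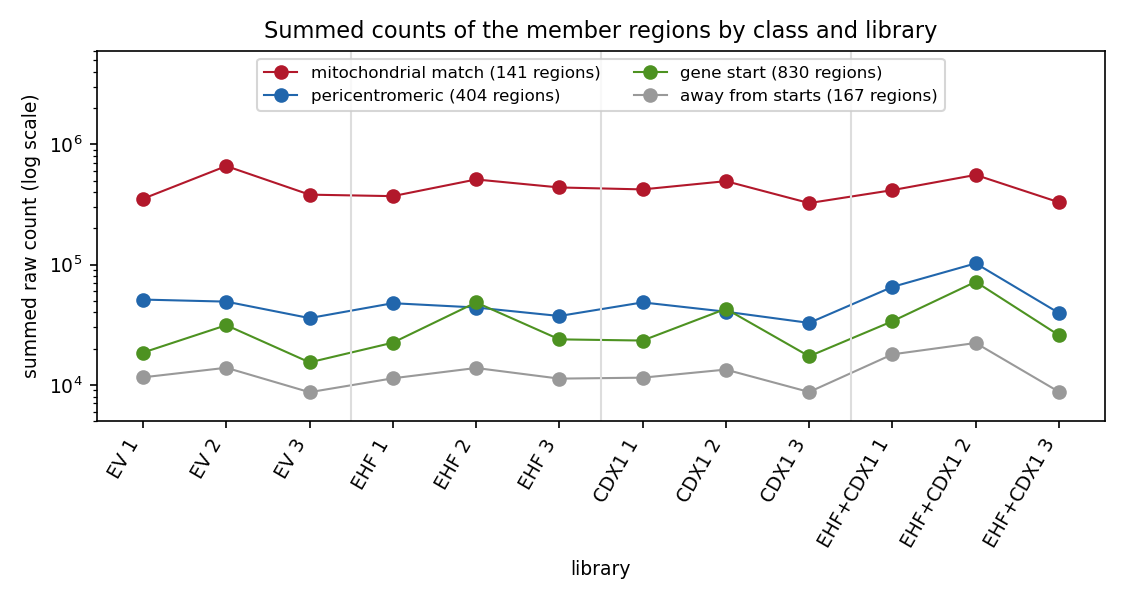
Summed raw counts (log axis) of the 4 classes of member regions in each of the 12 libraries, 1 point per library, with lines joining libraries only as a guide. Mitochondrial matches lie between 324685 and 659909 counts in every library, above the other classes, and gene-start members peak in EHF+CDX1 replicate 2 at 71975.

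The 830 gene-start members were promoters of ordinary, mostly protein-coding genes in unique sequence. The nearest start belonged to a protein-coding gene for 789, to a long noncoding RNA for 32, to a pseudogene for 8 and to a small nuclear RNA for 1. A coding start lay within 1 kb of 789, and 197 (23.7%) had 2 or more coding starts there, against 14.9% of all 12761 autosomal gene-start regions. All 30-base words of the region were unique in hg38 for 91.3% of them. Their median length was 310.5 bp and the median GC content of the central 150 bp was 64.7%, with 13 CpG. For all 13040 gene-start regions outside mitochondrial matches and pericentromeric sequence, median GC was 66.0%, also with 13 CpG, and median length 161 bp, so members were longer regions of about the same base composition.

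CCAAT was the word that set these promoters apart in frequency. It was present on either strand in the central 150 bp of 447 of the 830 (53.9%), against 26.8% of all gene-start regions. The share rose with the lowest count of the region, from 17.1% of the 2501 regions that were at 0 in some library, to 25.6% at 2 to 4, 40.9% at 5 to 9, 52.2% at 10 to 19 and 63.6% of the 121 at 20 or more. Median GC ran from 62.0% to 67.3% over these steps with no steady direction, while median length rose from 150 to 338 bp. Region length moves with the count, and its part in the rise was not tested. G3BP1 and ATOX1 held 5 CCAAT words in the 242 bases printed, ARRDC4 held 4 in 240 and CYCS held 2 in 203. The printed parts were cut around these words, so no density is read from them.

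Other words differed less, or in the other direction. The GC box (GGGCGG) was present in 62.2% of gene-start members and 52.0% of all gene-start regions, and TGACGTCA in 3.13% and 2.02%. The ETS words CCGGAAGT and AGGAAGT were present in 4.46% and 4.22% of members, close to the 4.62% and 4.46% of all gene-start regions. The CDX words TTTATT or TTTATG were present in 4.7% and 5.33%, the NRF1 word in 1.57% and 1.34%, and the E-box CACGTG in 5.18% and 5.56%. AP-1 words (TGANTCA) were rare, in 1.08% of members against 6.11%, and the CTCF word was present in 0.602% against 2.15%. These are shares of letters found and show no binding.

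**Figure D2:**
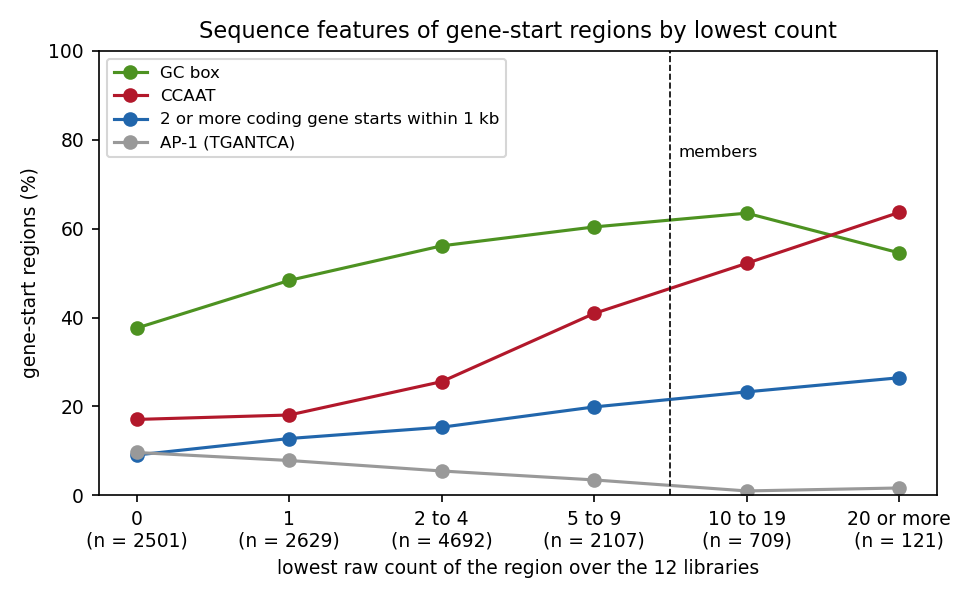
Share of gene-start regions (per cent) with a GC box, CCAAT, an AP-1 word, or 2 or more coding gene starts within 1 kb, by the lowest raw count of the region over the 12 libraries. Regions to the right of the dashed line are members. CCAAT rises from 17.1% to 63.6% and AP-1 words fall from 9.64% to 1.65%.

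Gene-start members were unevenly spread over the chromosome arms. Of gene-start regions, 6.51% were members, but 13% on 10q (48 of 370), 11.8% on 8q (64 of 542), 10.8% on 3p (36 of 332), 9.33% on 8p, 9.30% on 4p, 8.91% on 5q, 8.59% on 17q, 8.26% on 5p and 8.11% on 16q. The lowest shares among the 38 arms with at least 50 such regions were 1.09% on 20q (2 of 183), 1.39% on 17p (2 of 144) and 1.96% on 22q (2 of 102). The median of the mean CPM over gene-start regions was 6.85 on 4p, 6.78 on 16q, 6.74 on 10q, 6.71 on 18q and 6.68 on 8q, the 5 highest of these arms, against 5.82 over all, and was lowest on 20q at 4.87. The order of the arms was not the same as by share, with 5p at 5.42.

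Pseudogene starts led the gene-start members, 2 regions beside ROCK1P1 and the mitochondrial pseudogenes MTCYBP16 and MTND4P13. The highest start of a coding gene was the one shared by G3BP1 and ATOX1, with a mean of 79.4 CPM. It had 63.7, 115 and 63.1 CPM in EV, 77.8, 96.7 and 83.2 in EHF, 82.7, 91.2 and 76.9 in CDX1 libraries and 76, 51.5 and 75.6 in EHF+CDX1 libraries. EHF+CDX1 libraries overlapped EV and lay below all EHF and CDX1 libraries, and the highest value was EV replicate 2. The start of ARRDC4 had 49.4, 76.7 and 70.7 CPM in EV and 42.1, 34.8 and 61.5 in EHF+CDX1 libraries, with 40.2 to 68.6 in the single lines. Its groups also overlapped. RRM2B, the p53-inducible subunit of ribonucleotide reductase, had a mean of 62.6 CPM, SLC25A28, a mitochondrial iron carrier, 54.5 and ELOC, a subunit of elongin, 54.2. LCORL, PCF11 (a factor of transcription termination), ENY2 (a subunit of the SAGA complex) and PWWP2A, which binds the histone variant H2A.Z, had 48.9 to 51.8. None of these regions passed the test in any comparison, and few gene-start members did (0.602% for EHF+CDX1 against EV).

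The steadiest members were also gene starts. Over 12 libraries the SD of log2 CPM (prior count 2) was 0.14 at SLC25A32, a mitochondrial folate carrier. It had 45, 47.0 and 45.1 CPM in EV, 36.6, 45.5 and 45.7 in EHF, 36.5, 41.5 and 49.7 in CDX1 libraries and 41.0, 42.2 and 37.4 in EHF+CDX1 libraries. EHF and CDX1 libraries overlapped both other groups, and the EV libraries lay above those of EHF+CDX1 by a gap smaller than the spread within either single line. The next steadiest were DNAJC3, a co-chaperone of the endoplasmic reticulum, with an SD of 0.16, ELOC with 0.17, the deubiquitinase gene OTUD6B with 0.18 and CYCS with 0.18. CYCS, whose start is printed above, had 24.1, 18.7 and 27.1 CPM in EV and 27.9, 23.2 and 23.3 in EHF+CDX1 libraries. The median SD was 0.36 over gene-start members and 0.63 to 0.64 over the other 3 classes, against 0.55 over all gene-start regions. Low counts widen this SD, so members chosen for high counts start from a lower one.

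Gene families differed in how many of their members the rule took, with counts that were small for most lists and not tested. Of 82 ribosomal protein genes, 64 had a region within 1 kb of a start but only 2 had a member there (RPL15 and RPL27A), or 2.44%, against 5.42% of all 19103 autosomal protein-coding genes. The histones made in S phase gave 2 of 73 (the pair H2AC11 and H2BC11, which share a region), the proteasome 1 of 47 (PSMB1, which shares its start with TBP) and the cell cycle list 1 of 20 (AURKA). Chaperones gave 6 of 21 (CCT6A, CCT8, HSPA1B, HSPD1, HSPE1 and TCP1), translation factors 8 of 68, splicing factors 6 of 69 and zinc finger genes 23 of 503. Small nucleolar RNA host genes gave 3 of 29 and the immediate early genes 2 of 13 (JUN and ATF3). No member at any of these genes passed the test in any of the 5 comparisons (edgeR, adjusted p under 0.05). Few gene-start members did at all: 0.602% for EHF+CDX1 against EV, 0.120% against EHF and 0.241% against CDX1. Nothing is therefore read from the absence of calls in these lists. The largest difference was at EIF1B, a translation initiation factor, with 30.7, 35.9 and 34.6 CPM in EV and 16.6, 10.2 and 20.8 in EHF+CDX1 libraries, which did not overlap (log2 fold change -1.15, SE 0.37, edgeR adjusted p 0.0692). The shared start of HSPD1 and HSPE1, the mitochondrial chaperonins, had 20.9, 26.2 and 42.1 CPM in EV and 38, 44 and 42.4 in EHF+CDX1 libraries (adjusted p 0.491, edgeR). JUN had 28.5, 29.0 and 22.6 CPM in EV and 17.8, 19.2 and 19.9 in EHF+CDX1 libraries (adjusted p 0.451, edgeR).

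The 167 members away from starts were mixed in sequence. Clusters beyond the 5 Mb limit, set by position and called satellite-like here, held 66: 23 on chromosome 1, 31 on chromosome 9 and 12 on chromosome 16, each over less than 3 Mb. They were not matched to satellite sequence. Their median share of unique 30-base words was 0% on chromosomes 1 and 9 and 34.1% on chromosome 16. A run of at least 12 G or C was held by 24, a run of at least 20 bases identical to mitochondrial DNA by 4, and sequence with fewer than 50% unique 30-base words by 17. The other 56 were mostly unique, and 20 of them (35.7%) held an AP-1 word. Without regard to the clusters, 59 members away from starts had at least 50% unique words and neither kind of run. Of these, 35.6% held an AP-1 word, against 29.2% of the 13754 such regions in the whole table. The sets were split in this way after the values had been seen.

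Runs of G or C were far more frequent among members than in the table. Of the 72 regions of the series with a run of at least 12, 35 were members, and among these 30 were outside mitochondrial matches and pericentromeric sequence. The intron of RTF1, a subunit of the Paf1 complex (chr15:41426624-41426780), had 983, 961 and 715 counts in EV, 945, 876 and 1063 in EHF, 808, 787 and 697 in CDX1 libraries and 970, 938 and 511 in EHF+CDX1 libraries. The intron of ACSL3 printed above had 185 to 312 counts in EV and 158 to 349 in EHF+CDX1 libraries. Summed over the 24 away from starts, counts ran from 1805 to 3958, a 2.19-fold range over libraries in which the gene-start sum ranged 4.68-fold.

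Some member regions near chromosome ends were grouped by position. They were 3 on chromosome 4 in introns of DUX4, 4 on chromosome 10 and 2 beside ROCK1P1 on chromosome 18. DUX4 encodes a factor of early embryos. Sequence was compared only between the 2 of these printed above, so a repeat common to all 9 was not tested. At chr18:108357-108543 the counts were 398, 297 and 200 in EV, 471, 359 and 238 in EHF, 490, 313 and 266 in CDX1 libraries and 1211, 1328 and 307 in EHF+CDX1 libraries. At chr4:190179488-190179737, with which it shares the 65 bases in capitals above, they were 339, 249 and 194, then 356, 260 and 172, then 397, 278 and 223, and 1047, 1108 and 239. The ratio of the second to the first stayed between 0.723 and 0.970 in all 12 libraries. Replicates 1 and 2 of EHF+CDX1 were high and replicate 3 was not. After scaling, the 9 regions summed to 3106, 1297 and 1012 CPM in EHF+CDX1 and 2037, 910 and 1526 in EV libraries, which overlapped.

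Mitochondrial matches had the highest counts of any member. The 141 came from 184 autosomal matches in the table, lay on 20 chromosomes, and matched over 41 to 223 bases at 80.3% to 100% identity. Together they covered 8865 of the 16569 bases (53.5%) of the mitochondrial genome. The chromosome 13 region printed above, whose sequence is identical to mitochondrial DNA throughout, was the highest, with 26981, 41775 and 25531 counts in EV, 30289, 35809 and 30399 in EHF, 34577, 33420 and 25495 in CDX1 libraries and 27991, 42085 and 21596 in EHF+CDX1 libraries. Next were 2 regions of the pseudogene MTND5P11 on chromosome 5, with 17173 to 34713 counts per library. The 3 held 17.7% and the first 10 held 44.2% of the mean count of the class.

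Counts rose with the length of exact identity. The median of the mean count was 163 for the 13 members whose longest identical run was under 30 bases, 337 for the 62 at 30 to 39, 1044 for the 42 at 40 to 59 and 9110 for the 24 at 60 or more. Below the limit of the match, 12 further members held a run of at least 20 bases, among them MTCYBP16 with 1054 to 2433 counts per library, the highest member of the remaining 997. Reads of mitochondrial origin and reads of the nuclear copy cannot be told apart in the counts.

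**Figure D3:**
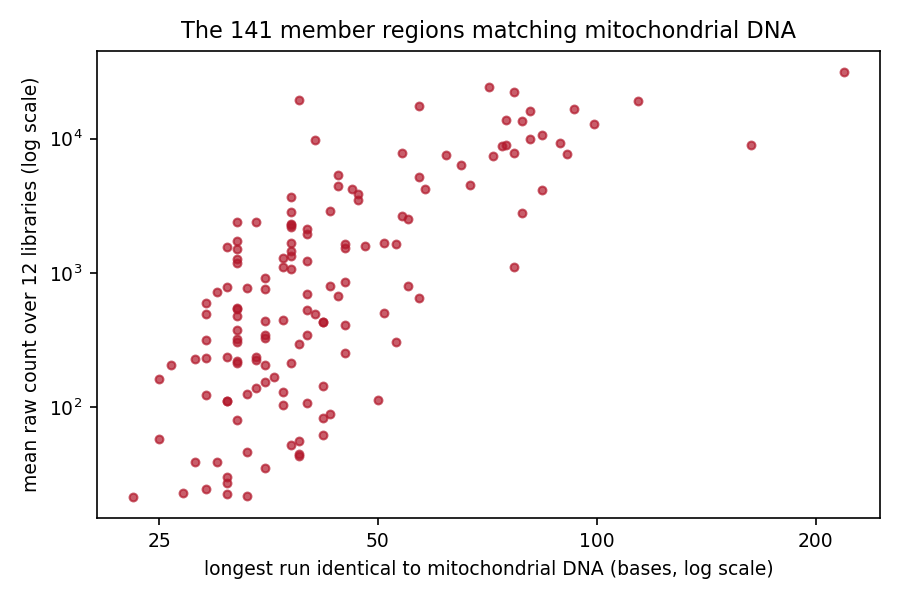
Mean raw count over 12 libraries (log axis) against the longest run of bases identical to mitochondrial DNA (log axis), 1 point for each of the 141 mitochondrial matches among the members. Points at 60 bases or more have a median of 9110 counts and points under 30 bases a median of 163.

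Of 2223 autosomal pericentromeric regions, 404 (18.2%) were members, and 25 more were counted with the mitochondrial matches. Most lay between genes (344 of 404), and 287 had fewer than 50% unique 30-base words. The mean copy number of their 30-base words in hg38 was 100 or more for 198. They were spread unequally, with 50 on chromosome 4, 40 on chromosome 21, 34 on chromosome 10 and 33 on chromosome 5, but 1 on chromosome 19 and none on chromosome 13. The highest, the AT-rich chromosome 3 region printed above, was itself largely unique, and its counts were 7171, 6464 and 5405 in EV, 5649, 5831 and 4681 in EHF, 6246, 3882 and 4227 in CDX1 libraries and 2261, 13461 and 6231 in EHF+CDX1 libraries. The EHF+CDX1 libraries spanned both the lowest and the highest value. The 404 had a median mean count of 48.2.

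The 5 comparisons ask how stable this shared set was when the factors were introduced. They used edgeR's quasi-likelihood test over 30154 regions with Benjamini-Hochberg adjustment, and all 1542 members entered it. The replicate number was not in this fit. With it as a block, more members were called in every comparison, as given at the end. For EHF against EV those were 22 pericentromeric members, 13 away from starts, 10 mitochondrial matches and 1 gene-start member, all lower. Of all 30154 regions, 66 were called there. Without the block, no member passed for EHF against EV, against 0.00995% of all regions tested. In that fit, 122 members had an unadjusted p under 0.05, of which 120 were lower. Other tools called 0 to 9 members. For CDX1 against EV no member passed either, against 0% of all regions, with 42 unadjusted, and other tools called 0 or 1. The member of a satellite-like cluster at chr1:143247172-143247410 had 48.3, 27.6 and 36.1 CPM in EV, 23.8, 4.06 and 12.8 in EHF and 26.0, 12.1 and 18.9 in CDX1 libraries (adjusted p 0.45 for EHF and 1 for CDX1, edgeR).

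In EHF+CDX1 against EV, 40 members were lower and none was higher. Of all regions 2.57% passed (1.79% higher and 0.779% lower), beside 2.59% of members. The rule used the same counts: it needed at least 10 in each EV library, which kept out regions low in EV and raised in EHF+CDX1 cells, so nothing is read from the direction or from the class medians. The 40 were 20 of the 141 mitochondrial matches, 2 of the 404 pericentromeric members, 5 of the 30 with runs of G or C, 3 of the 10 with short mitochondrial runs, 4 in other repeats or satellite clusters, 5 of the 56 distal members of mostly unique sequence and 1 of the 779 coding starts of unique sequence. The call was tied to the libraries. Without EHF+CDX1 replicate 2, the library that stood apart, 1 member was called, the mitochondrial match at chr11:103410343-103410500, whereas 11, 12 or 24 were called without EV replicate 2, 3 or 1, and 77 without EHF replicate 2.

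The class medians are given as a description. The median log2 fold change of EHF+CDX1 against EV was -0.15 over gene-start members, -0.61 over those away from starts, -0.48 over pericentromeric members and -1.18 over mitochondrial matches, beside 0.18 over all regions. All 141 mitochondrial matches were below 0, as were 521 of the 830 gene-start members. When libraries were scaled on the members outside mitochondrial matches and pericentromeric sequence, the median of all regions moved from 0.18 to 0.42 and those of the classes to 0.07, -0.40, -0.27 and -1.0. The sign for gene-start members therefore turned with the scaling, and relative to all regions they lay lower under both. In the single lines gene-start members had medians of -0.02 (EHF) and -0.00 (CDX1), and mitochondrial matches -0.64 and -0.46, in comparisons that share the EV libraries.

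**Figure D4:**
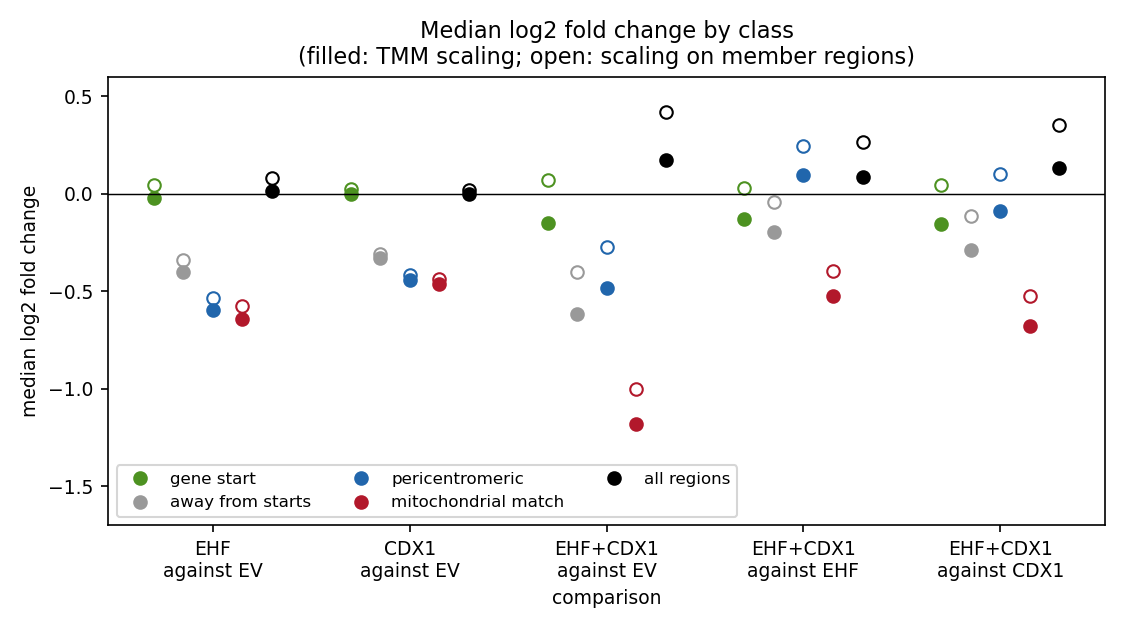
Median log2 fold change of each class of member regions and of all regions in the 5 comparisons. Filled points use TMM scaling and open points scaling on member regions. Mitochondrial matches are lowest in EHF+CDX1 against EV, at -1.18 and -1.0, and the gene-start median there changes sign from -0.15 to 0.07.

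Among the called members of unique sequence, the clearest were distal. The SORCS3 intron printed above had 19.8, 44.2 and 15 CPM in EV, 11.9, 24.4 and 16.5 in EHF, 20.2, 17.8 and 14.2 in CDX1 libraries and 7.72, 8.58 and 9.14 in EHF+CDX1 libraries (log2 fold change against EV -1.7, SE 0.38, edgeR adjusted p 0.00405). The EHF+CDX1 libraries lay below all others, and EV replicate 2 was the highest of the 12. A second region of the same gene, chr10:104809537-104809707, had 27.4, 54.6 and 24.1 CPM in EV and 7.72, 17.2 and 13.3 in EHF+CDX1 libraries (log2 fold change -1.47, edgeR adjusted p 0.0175). Here EV replicate 2 was again the highest, and the EHF libraries (12.8, 40.6 and 13.7) overlapped both groups. An intron of FANK1, a testis protein, had 26.3, 29.7 and 27.1 CPM in EV and 13.7, 9.03 and 9.97 in EHF+CDX1 libraries (log2 fold change -1.37, edgeR adjusted p 0.0275). Its words were unique for 51.8% of positions only.

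Of the 779 coding starts of unique sequence, 1 was called in each comparison that involved EHF+CDX1 cells, and each was a different gene. Over all regions, 2.57% were called against EV, 4.35% against EHF and 2.6% against CDX1. C10orf88, whose start PSTK shares, had 18.7, 31.8 and 16.5 CPM in EV and 8.90, 9.71 and 10.8 in EHF+CDX1 libraries, without overlap (log2 fold change -1.24, SE 0.37, edgeR adjusted p 0.0454). RPGRIP1L, a protein of the ciliary transition zone that shares its start with FTO, had 22.9, 31.7 and 41.1 CPM in EHF and 17.8, 9.71 and 17.4 in EHF+CDX1 libraries, also without overlap (log2 fold change -1.14, SE 0.36, edgeR adjusted p 0.0497). SEC23IP, which takes part in vesicle export from the endoplasmic reticulum and shares its start with MCMBP, had 47.1, 47.3 and 37.8 CPM in CDX1 libraries and 12.5, 10.6 and 28.2 in EHF+CDX1 libraries (log2 fold change -1.44, SE 0.39, edgeR adjusted p 0.0212). In SEC23IP the third EHF+CDX1 library lay near the EV values of 27.1 to 41.4. These calls depended on the processing. Under 22 alternative settings, C10orf88 was called in 7, RPGRIP1L in 8 and SEC23IP in 15.

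Against EHF, 6 members were called, 5 lower and 1 higher, beside 4.35% of all regions (3.65% higher and 0.7% lower). Against CDX1, 7 were called, all lower, beside 2.6% (2.06% higher and 0.541% lower). The members' shares, 0.389% and 0.454%, lay below these. Without EHF+CDX1 replicate 2 no member was called in either. The 2 comparisons share the EHF+CDX1 libraries, so values are given side by side. The intergenic region of chromosome 4 printed above had 22, 20.7 and 16.5 CPM in EV, 15.6, 31.7 and 22.9 in EHF, 26.9, 29.9 and 21.3 in CDX1 libraries and 8.90, 8.35 and 8.31 in EHF+CDX1 libraries. Its log2 fold change was -1.48 against EHF (edgeR adjusted p 0.00689), -1.62 against CDX1 (0.00401) and -1.22 against EV (0.0586), and the EHF+CDX1 libraries lay below all 9 others. An intergenic region of chromosome 3, chr3:5699357-5699637, had 22.9 to 24.7 CPM in EHF, 20.1 to 29.9 in CDX1, 23.5 to 24.1 in EV and 7.72, 7.67 and 11.6 in EHF+CDX1 libraries, and was the only member called in all 3 comparisons that involved EHF+CDX1 cells. Its words were unique for 52.6% of positions. An intron of SYTL3, a synaptotagmin-like protein of vesicle traffic, was called against EHF, with 31.1, 38.2 and 35.7 CPM there and 15.4, 9.93 and 18.3 in EHF+CDX1 libraries (log2 fold change -1.32, edgeR adjusted p 0.0173). The single member called higher was pericentromeric, chr5:49666913-49667078, with 19.2, 5.28 and 15.5 CPM in EHF and 49.9, 23.2 and 26.6 in EHF+CDX1 libraries (log2 fold change 1.39, edgeR adjusted p 0.0251). Its EV libraries, at 37.3, 23.5 and 40.6, overlapped those of EHF+CDX1.

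**Figure D5:**
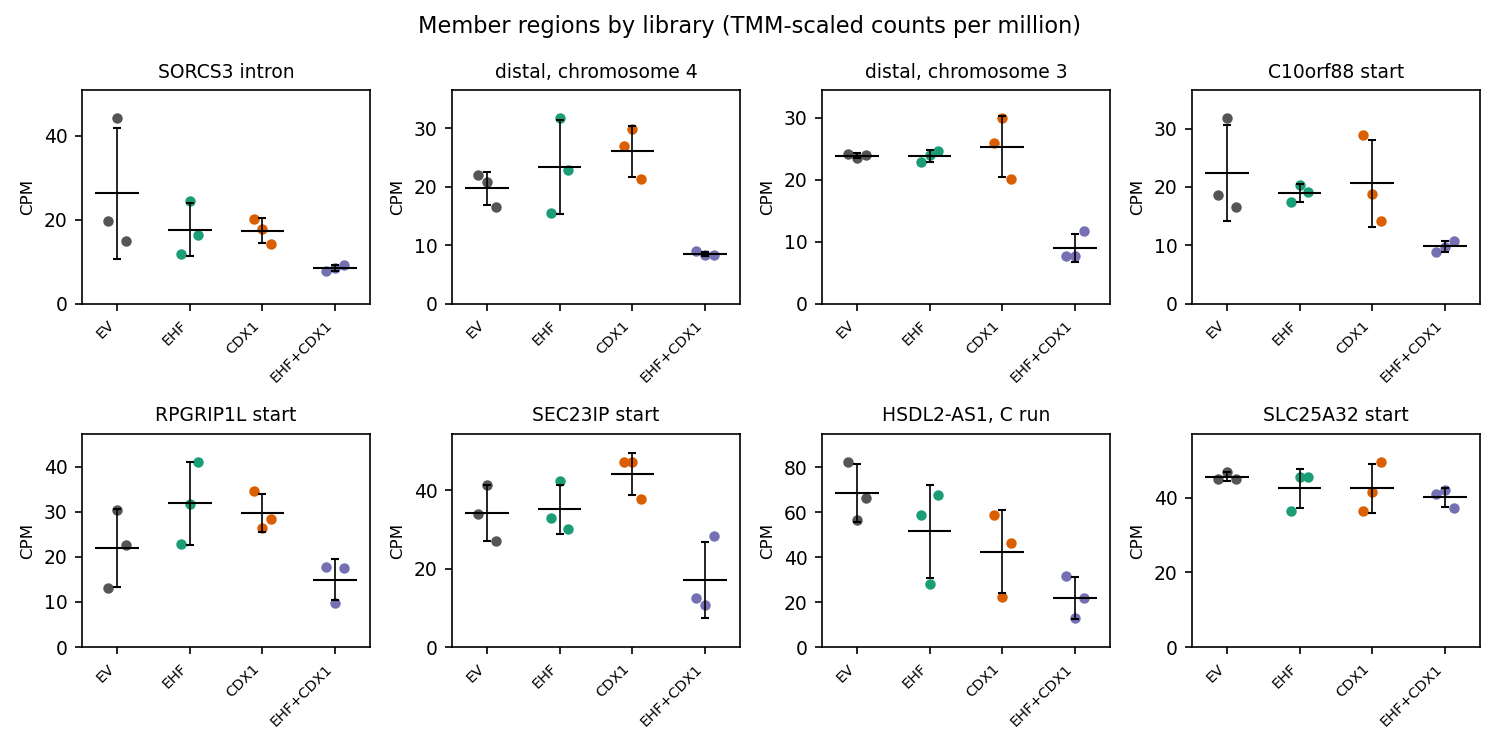
TMM-scaled CPM of 8 member regions in the 12 libraries. Points are libraries, bars the mean and SD of 3 libraries. EHF+CDX1 libraries lie lowest at the SORCS3 intron and the chromosome 4 and 3 regions, while SLC25A32 stays between 36.5 and 49.7 CPM in all.

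Some called members lay in repeated sequence, matched mitochondrial DNA or held runs of G or C. An intron of PTPRN2, a phosphatase-like protein of secretory granules (chr7:158151352-158151520, 27.3% unique words), had 116, 113 and 119 CPM in EV, 93.3, 54.0 and 85.0 in EHF, 144, 62.2 and 73.3 in CDX1 libraries and 57.0, 12.9 and 17.4 in EHF+CDX1 libraries (log2 fold change against EV -2.01, SE 0.47, edgeR adjusted p 0.00686). EHF+CDX1 replicate 1 was higher than the other two. The mitochondrial match at chr11:103410343-103410500 had 306, 109 and 541 CPM in EV, 75.0, 111 and 172 in EHF, 418, 201 and 116 in CDX1 libraries and 53.4, 42.2 and 64.8 in EHF+CDX1 libraries (log2 fold change against EV -2.58, SE 0.51, edgeR adjusted p 0.000838). EV values spread widely, and EHF+CDX1 lay below all others. The intron of HSDL2-AS1 with a run of 15 C or G (chr9:112476180-112476338) had 82.3, 56.6 and 66.1 CPM in EV and 31.5, 12.9 and 21.6 in EHF+CDX1 libraries (log2 fold change -1.66, edgeR adjusted p 0.015).

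An interaction term in the same edgeR fit compared the effect of both factors with the 2 single effects added. No member passed, beside 0.123% of all regions, with 73 unadjusted and a smallest adjusted p of 0.101. The precision of a single member was limited, with a median SE of 0.37 log2 units over gene-start members for EHF+CDX1 against EV and 0.64 over all regions.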

How the data were processed

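ATAC-seq was performed on 12 libraries of HCT116 cells. The authors aligned paired reads of 80 bases to hg38 (Subread 2.0.0), retained uniquely mapped reads, called peaks (HOMER 4.7), merged them, and deposited raw read counts per region (featureCounts 2.0.0) and log2 CPM values per library. Duplicate removal and shifting of cut sites are not given in the sources used here.

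Counts were tested with edgeR 4.0.16 in R 4.3.3 (quasi-likelihood F-test, robust, TMM, two-sided). Regions with a CPM of at least 3 in 1 library or more entered 1 fit of all 12 libraries, and p-values were adjusted by Benjamini-Hochberg, with a threshold of 0.05. The script was tested on simulated data. Mitochondrial matches were found with blastn 2.17.0 and genes taken from GENCODE 44, with bedtools 2.31.1. Centromeric arrays were located by CENP-B boxes. Words were searched in the central 150 bp on both strands. The SD of log2 CPM used a prior count of 2.

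The members and lists were chosen with earlier results of these data known. Regions named were the 15 highest of the 997, the 3 highest of the other classes, called members with the largest change in each direction (the 2 smallest p where none was called), the 5 steadiest and 5 most variable, and members at listed genes. The highest gene starts, other called members and the chromosome-end regions were added after their values were seen. Alternatives changed the scaling, the filter, the tool, the libraries and a replicate block.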

Additional observations from a re-analysis of the deposited data

How the results depend on the processing

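The count of called members depended on the processing, and the cause was not tested unless the setting itself removed regions or libraries. For EHF+CDX1 against EV (40), 18 members were called with mitochondrial matches and the EHF and CDX1 exons out of the fit. That fit could not call the mitochondrial matches, which were 20 of the 40. Called members numbered 5 with a filter of at least 10 counts in at least 3 libraries, and 4 with limma on the deposited log2 values, whereas DESeq2 called 75. Against EHF (6), the counts were 12 with scaling on member regions, 0 with that filter, 2 with DESeq2, 21 with voom and 0 with the deposited values. Against CDX1 (7), they were 2, 4, 29 and 0 for the filter, DESeq2, voom and the deposited values. With voom 9 members were called for EHF against EV and 1 for CDX1 against EV. No call was reversed under the alternatives run.

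With 1 library left out at a time, the counts ran from 0 to 1 for EHF against EV (1 without EHF replicate 1), stayed at 0 for CDX1 against EV, and ran from 1 to 77 for EHF+CDX1 against EV, from 0 to 14 against EHF and from 0 to 15 against CDX1. The lowest of the last 3 ranges came without EHF+CDX1 replicate 2. The highest came without EHF replicate 2 for EV, and without EHF+CDX1 replicate 3 for the other two. Against EHF, 12, 13 and 10 were called without EV replicate 2, CDX1 replicate 2 and EHF+CDX1 replicate 1, and against CDX1, 14 without EHF replicate 2, 2 without CDX1 replicate 1 or 2 and 4 without CDX1 replicate 3.

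The running sample numbers in the titles follow the replicate number, with the lines in the same order each time. The labels do not say what libraries with the same replicate number had in common. The correlation of their deviations from the group means had a median of 0.09 over 18 pairs and was over 0.1 in 5, with a highest value of 0.31. Over the 36 pairs with other numbers the median was -0.06 and the highest 0.06. Libraries with the same number were therefore somewhat more alike, for a reason that was not tested. With the replicate number as a block, 46 members were called for EHF against EV, 1 for CDX1 against EV, 297 for EHF+CDX1 against EV, 98 against EHF and 91 against CDX1.

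Depth limited which regions were members: with EV replicate 3, the smallest library by TMM-scaled size, ignored, 1915 regions passed in place of 1542.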
